A study of Mus musculus with 60 samples.

Results

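Control kidneys taken at ZT12, when the lights went off, were compared with control kidneys taken 4 h earlier at ZT8 (ZT, zeitgeber time in hours after lights on). The comparison holds 10 of the 60 mice of the series, 5 at each time, chosen by the genotype and time in their labels and by no measured value. Control mice were Bmal1lox/lox males with the floxed alleles but without the transgenes. Like the cKOt mice of the series (Bmal1lox/lox/Pax8-rtTA/LC1 Cre, in which the Pax8 promoter directs doxycycline-induced loss of Bmal1 to the renal tubule), they drank doxycycline for 2 weeks from 8 weeks of age, and kidneys were collected 4 weeks later under 12 h light and 12 h dark with free access to food. The labels give the tissue as renal tubule, whereas the methods describe frozen pieces of kidney. Each group first held 6 mice, of which the authors kept 5 by RNA quality and by distance from the group. The 10 libraries held 17911086 to 19190706 counts on genes and 20937 to 21459 genes with counts. The files of the 10 mice all differed from one another. Among the 20 pairs of mice of one group, the lowest chi-square per gene was 6.10.

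The circadian clock of a cell is a loop of transcription factors. BMAL1 (encoded by Arntl) and CLOCK bind E-box sequences and drive the period and cryptochrome genes, whose proteins then repress BMAL1 and CLOCK, while the REV-ERB repressors (Nr1d1, Nr1d2) and the ROR activators (such as Rora) compete for one element in Arntl, Cry1, and other genes. In nocturnal animals the end of the light phase precedes waking and feeding, circulating glucocorticoids climb toward it, and the kidney moves from rest toward its active phase. The labelled tissue held the transcripts of kidney cells. The 10 proximal tubule markers together made up 41694 to 48748 CPM (read counts scaled to library size, with TMM adjustment) at ZT8 and 46886 to 54873 at ZT12. In bulk tissue, fewer cells of a type cannot be told apart from less RNA per cell.

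From ZT8 to ZT12, Cry1 and Per2 rose, Nr1d1 fell, the vitamin D-degrading enzyme Cyp24a1 fell 3.96-fold, and the glucocorticoid-responsive genes Zbtb16, Tsc22d3, and Sgk1 rose 2.04- to 3.24-fold. In total, 437 of 15546 genes (2.81%) were called, that is, had an adjusted p below 0.05 in the edgeR quasi-likelihood test with Benjamini-Hochberg adjustment over all genes tested. Of these, 251 (1.61% of the genes tested) were higher and 186 (1.2%) lower at ZT12. Without adjustment, 2580 genes had a p below 0.05. The changes were mostly small. The median absolute log2 fold change was 0.30 among the genes that rose and 0.42 among those that fell, 51 and 56 of them changed at least 1.5-fold, and 18 and 17 at least 2-fold. In 566 genes (3.64% of those tested) the CPM of the 5 mice at ZT8 and of the 5 at ZT12 did not overlap, with 327 higher (2.1%) and 239 lower (1.54%) at ZT12. How many genes were called depended on the 2 RUVs factors (estimated axes of variation among mice of one group, used as covariates), since 130 genes were called without them and 134 with the listed library batch in their place. With fewer mice and no RUVs factors, 76 genes were called in the 10 mice alone and 8 in the 7 mice whose batches held both times. The fit of the 7 mice held batch terms, and both fits left fewer residual degrees of freedom. The effects of fewer mice and of the missing factors were not separated there. The DESeq2 Wald test called 565. Leaving out 1 control mouse gave 229 to 427 genes, with the lowest counts without ZT8 replicate 2 (229) and ZT8 replicate 4 (237).

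**Figure D1:**
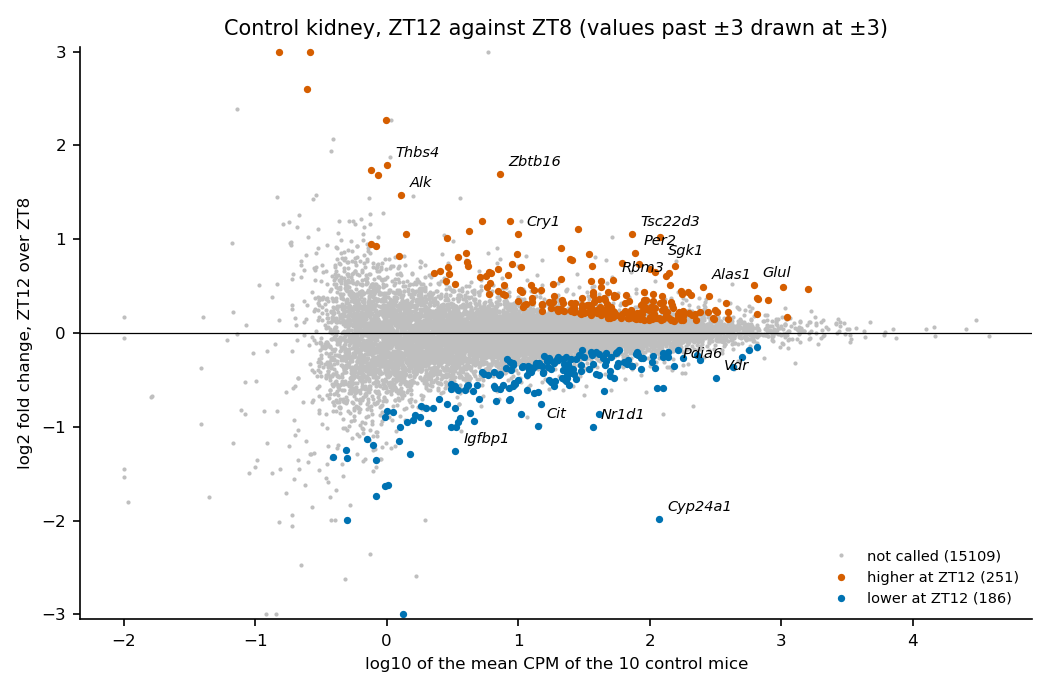
Each point is 1 of 15546 genes, with the log10 of its mean CPM over the 10 control mice on the x axis and the fitted log2 fold change from ZT8 to ZT12 on the y axis (values past ±3 are drawn at ±3). The 251 genes called higher (orange) and 186 called lower (blue) lie mostly within 1 log2 unit of 0, and Cyp24a1, at −1.99, had the largest fall among called genes with a mean above 10 CPM.

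Of the 18 core clock genes reported here, 2 rose, 1 fell, and 15 were not called, against 2.81% called among all genes tested. Cry1, a cryptochrome repressor (ENSMUSG00000020038, chromosome 10, 85131700 to 85185064, minus strand of GRCm38), was at 6.67, 6.59, 5.25, 7.87, and 5.77 CPM at ZT8 and at 10.5, 13.1, 15.9, 14.5, and 13.0 CPM at ZT12. Every mouse at ZT12 lay above every mouse at ZT8, with means of 13.4 ± 2.01 and 6.43 ± 0.999 CPM (mean ± SD of 5 mice). Its level was 2.07-fold higher 4 h later (log2 fold change 1.05 ± 0.12, SE, edgeR adjusted p = 4.68e-08). In the 7 mice of shared batches the change was similar but not called (0.99, edgeR adjusted p = 0.0937).

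The window of 250 bases before to 50 bases after the annotated Cry1 start (RefSeq, GRCm38.p6, chr10:85185005-85185304, minus strand, printed 5′ to 3′) holds 1 E-box, CACGTG, beginning 60 bases before the start. It is shown because Cry1 is one of the clock genes that rose, and the E-box is in capitals.
Cry1: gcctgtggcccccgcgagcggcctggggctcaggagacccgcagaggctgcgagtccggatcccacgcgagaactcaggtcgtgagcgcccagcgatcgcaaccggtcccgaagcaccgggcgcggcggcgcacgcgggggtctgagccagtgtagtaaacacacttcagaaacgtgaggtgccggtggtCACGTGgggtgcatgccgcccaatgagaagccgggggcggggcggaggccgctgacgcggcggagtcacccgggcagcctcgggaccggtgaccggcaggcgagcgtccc
Windows were found for 16 of the 18 clock genes (not for Per2 and Bhlhe40), and CACGTG, which reads the same on both strands, lay in those of 5 (Per1, Cry1, Bhlhe41, Ciart, and Tef) and in 7.15% of all 32851 windows. Of these 5 genes, Cry1 was the one called. The ROR element TAGGTCA, searched on both strands, was found in windows of Arntl and Nfil3 and in 2.61% of all windows.

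Per2, a period repressor (ENSMUSG00000055866, chromosome 1, 91415982 to 91459324, minus strand), was tightly grouped at ZT8, with 53.4, 56.6, 51.2, 53.5, and 59.8 CPM. At ZT12 it was measured at 92.5, 126, 98.5, 90.9, and 89.2 CPM, above all mice at ZT8 (log2 fold change 0.85 ± 0.15, edgeR adjusted p = 0.000799). Nr1d1, which encodes the repressor REV-ERBα (ENSMUSG00000020889, chromosome 11, 98767932 to 98775333, minus strand), went the other way. It was at 45.4, 37.8, 57.2, 50.6, and 59.5 CPM at ZT8 and at 32.9, 29.8, 13.2, 17.6, and 24.6 CPM at ZT12, without overlap (log2 fold change −1.004 ± 0.20, edgeR adjusted p = 0.00263). Both calls were kept in the 7 mice of shared batches and with each of the 10 control mice left out.

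**Figure D2:**
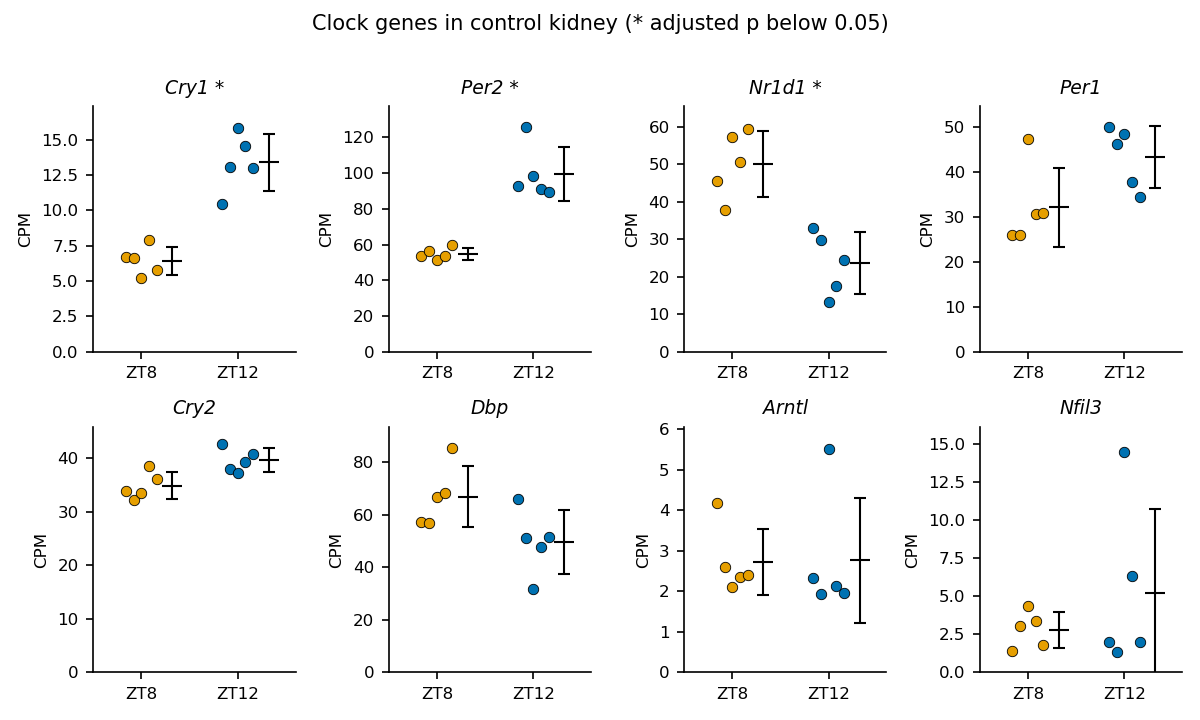
CPM (y axis, from 0) of 8 clock genes in the 5 control mice at ZT8 (orange) and the 5 at ZT12 (blue), with the mean and SD beside the points and a star at an adjusted p below 0.05 (lower error bars are cut at 0). Cry1 and Per2 lie higher and Nr1d1 lower at ZT12 in every mouse. In Arntl ZT12 replicate 3 lies far above the other 4 mice, and in Nfil3 it is the highest (14.5 CPM, the next mouse 6.32 CPM).

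The other 15 clock genes were not called. Per1, another period gene, averaged 32.1 ± 8.79 CPM at ZT8 and 43.3 ± 6.87 CPM at ZT12 (log2 fold change 0.50 ± 0.21, edgeR adjusted p = 0.188), and ZT8 replicate 3 at 47.2 CPM lay within the ZT12 range. Cry2 averaged 34.9 and 39.6 CPM (0.20 ± 0.06, edgeR adjusted p = 0.0745). The PAR bZIP output gene Dbp, at 66.8 ± 11.7 and 49.6 ± 12.3 CPM, had a log2 fold change of −0.33 ± 0.16 (edgeR adjusted p = 0.295). Arntl itself was at its lowest of the day at both times, with 2.73 ± 0.825 and 2.77 ± 1.54 CPM and a log2 fold change of −0.01 ± 0.33, and its sign changed with 8 of the settings tried. Among the 18 genes the median log2 fold change was 0.13, against 0.01 over all genes tested.

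One mouse at ZT12 stood apart in the clock genes. Replicate 3 was the highest or the lowest of its group for 13 of the 18 genes, where the other 4 mice were so for 3 to 8. It was highest for Arntl, Clock, Npas2, Cry1, and Nfil3 and lowest for Per3, Cry2, Nr1d1, Nr1d2, Bhlhe41, Ciart, Dbp, and Tef. In that mouse Arntl stood at 5.51 CPM (the others at 1.93 to 2.32), and Nfil3, a repressor of the genes that DBP activates, at 14.5 CPM (the others at 1.36 to 6.32). The control mice at ZT16 spanned 12.0 to 36.5 CPM of Arntl and 7.19 to 24.2 CPM of Nfil3. Without this mouse the changes in Cry1 (0.98) and Nr1d1 (−0.84) were still called, while the log2 fold change of Nfil3 went from 0.78 (not called, edgeR adjusted p = 0.334) to −0.07.

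Several glucocorticoid-responsive genes rose by ZT12. Of 27 members measured, 6 rose (22.2%, against 1.61% of all genes tested) and none fell, and the median log2 fold change was 0.14. This list, like the others here, was chosen with earlier results of these data known, so such shares describe the lists and do not test them. Zbtb16, a zinc finger transcription factor that glucocorticoids induce, was at 3.13, 3.40, 4.13, 2.94, and 4.00 CPM at ZT8 and at 17.9, 8.38, 12.9, 8.73, and 7.03 CPM at ZT12. Its lowest ZT12 mouse was still above every mouse at ZT8 (log2 fold change 1.69 ± 0.39, edgeR adjusted p = 0.00811). Tsc22d3, which encodes the anti-inflammatory protein GILZ, went from 47.1, 43.3, 58.2, 49.6, and 37.5 CPM to 85.2, 122, 107, 89.1, and 90.8 CPM without overlap (1.05 ± 0.14, edgeR adjusted p = 2.06e-06). Sgk1, a kinase that promotes sodium reabsorption through the epithelial sodium channel, was at 75.9, 64.9, 104, 86.9, and 74.7 CPM at ZT8. At ZT12 it was at 120, 228, 164, 113, and 161 CPM, again without overlap (1.03 ± 0.19, edgeR adjusted p = 0.0012).

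Of the remaining members that rose, Ddit4, an inhibitor of mTORC1, went from 15.1 ± 3.39 to 27.0 ± 5.06 CPM (0.91 ± 0.22, edgeR adjusted p = 0.0134), and was not called without ZT12 replicate 3 (0.80, edgeR adjusted p = 0.0508). Fkbp5, a co-chaperone of the glucocorticoid receptor, averaged 116 ± 26.7 and 194 ± 37.4 CPM, with 1 mouse at ZT12 (135 CPM) inside the ZT8 range of 85.8 to 155 CPM. The sulfotransferase gene Sult1a1 rose from 15.4 to 18.9 CPM. Both were near the threshold, since Fkbp5 lost its call in 5 and Sult1a1 in 9 of the 10 fits that left out a control mouse. Gadd45g (log2 fold change 1.19 ± 0.38, edgeR adjusted p = 0.0668) and Dusp1 (0.55 ± 0.25, edgeR adjusted p = 0.24) were not called. The receptor gene Nr3c1 was at 153 ± 8.90 and 147 ± 11.9 CPM (−0.09 ± 0.06). The number of members called higher was 3 without RUVs factors, 3 without ZT12 replicate 3, 4 in the 10 mice alone, and 1 (Tsc22d3) in the shared batches.

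The Sgk1 window that begins at base 21993640 of chromosome 10, 1 of 6 RefSeq start windows of the gene (GRCm38.p6, chr10:21993640-21993939, plus strand), holds the glucocorticoid response element (AGAACA and TGTTC separated by any 3 bases, searched on both strands) beginning 189 bases before the start. The matches on the 2 strands overlap and are in capitals. The sequence is shown because Sgk1 was the one of 23 list members with a window in which this motif was found.
Sgk1: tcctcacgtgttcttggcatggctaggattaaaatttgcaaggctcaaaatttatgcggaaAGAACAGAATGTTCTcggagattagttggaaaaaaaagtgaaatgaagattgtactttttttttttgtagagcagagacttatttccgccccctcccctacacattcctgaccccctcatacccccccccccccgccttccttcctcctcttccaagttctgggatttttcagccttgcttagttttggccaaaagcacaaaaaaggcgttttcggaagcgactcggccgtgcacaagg
The motif was present in 16 of all 32851 windows (0.0487%).

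The largest fall among the called genes named here was in calcium and vitamin D metabolism. Cyp24a1 encodes the mitochondrial hydroxylase that inactivates vitamin D (ENSMUSG00000038567, chromosome 2, 170482708 to 170497145, minus strand). It was at 188, 297, 220, 122, and 122 CPM at ZT8 and at 47.5, 62.8, 42.7, 26.8, and 45.0 CPM at ZT12. All mice at ZT12 lay well below the lowest at ZT8, and the log2 fold change was −1.99 ± 0.47 (edgeR adjusted p = 0.012). Without ZT8 replicate 2, the highest mouse, it was −1.72 and no longer called (edgeR adjusted p = 0.0558). Vdr, the vitamin D receptor, whose target genes include Cyp24a1, was at 384, 372, 374, 371, and 359 CPM at ZT8 and at 250, 276, 266, 283, and 261 CPM at ZT12. The groups were far apart for their spread (SD 8.92 and 12.8 CPM), with a 1.4-fold fall (log2 fold change −0.48 ± 0.09, edgeR adjusted p = 0.000695). Cyp27b1, the hydroxylase that activates vitamin D, was at 5.02 ± 1.53 and 8.83 ± 3.49 CPM (0.91 ± 0.38, edgeR adjusted p = 0.192). Of 15 genes measured, 2 fell (13.3%, against 1.2% of all genes tested) and none rose, with a median of −0.09.

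Chaperones and folding enzymes of the endoplasmic reticulum (ER) made up most of the calls in the list of ER folding and the unfolded protein response. Of 27 genes measured, 20 had a negative log2 fold change, 5 fell (18.5%, against 1.2%), and 1 rose (3.7%, against 1.61%), with a median of −0.18. Pdia6, a protein disulfide isomerase, went from 189, 190, 145, 160, and 168 CPM to 134, 147, 139, 132, and 124 CPM (−0.35 ± 0.08, edgeR adjusted p = 0.00664), with 1 mouse of ZT8 within the ZT12 range. The lectin chaperones calreticulin (Calr, 482 ± 67.4 to 381 ± 55.5 CPM) and calnexin (Canx, 598 ± 49.5 to 542 ± 51.4 CPM) fell by 0.36 and by 0.18 on the log2 scale. Sdf2l1, an ER chaperone component, went from 5.51 ± 1.83 to 3.07 ± 0.846 CPM, and Derl3, a part of the pathway that removes misfolded proteins, from 1.47 to 0.49 CPM. Pdia6 kept its call in each of the 10 fits without a control mouse, whereas Calr and Sdf2l1 lost it in 7, Canx in 6, and Derl3 in 4. The translation-controlled transcription factor Atf4 rose from 62.1 ± 1.65 to 78.4 ± 13.1 CPM, and its call was lost without ZT12 replicate 2 (0.24, edgeR adjusted p = 0.125). The main ER chaperones Hspa5 (−0.30 ± 0.14, edgeR adjusted p = 0.278) and Hsp90b1 (−0.35 ± 0.10, edgeR adjusted p = 0.0507) were not called. ZT8 replicate 3 was the lowest of its group in Hspa5 (300 CPM, the others 520 to 634), Hsp90b1 (352 CPM), and Calr (377 CPM). The number of members called lower was 9 without that mouse, 1 without ZT8 replicate 2 or replicate 4, 1 without RUVs factors, and 0 in the 10 mice alone.

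The ER stress response element (CCAAT and CCACG separated by any 9 bases, on either strand) is given with 40 bases on each side for the 4 called members that hold it and for Hspa5, which holds it and was not called. The windows are from RefSeq on GRCm38.p6, printed 5′ to 3′ on the strand of the gene with the motif in capitals: Calr (chr8:84847035-84847133, minus), Pdia6 (chr12:17266451-17266549, plus), Canx (chr11:50325760-50325858, minus), Derl3 (chr10:75893202-75893300, plus), and Hspa5 (chr2:34771985-34772083, plus). In Calr and Derl3 the motif lies on the opposite strand.
Calr: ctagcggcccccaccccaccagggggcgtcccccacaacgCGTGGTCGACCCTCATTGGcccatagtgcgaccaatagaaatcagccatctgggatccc
Pdia6: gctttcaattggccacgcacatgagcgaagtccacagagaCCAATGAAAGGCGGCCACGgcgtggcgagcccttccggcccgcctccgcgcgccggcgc
Canx: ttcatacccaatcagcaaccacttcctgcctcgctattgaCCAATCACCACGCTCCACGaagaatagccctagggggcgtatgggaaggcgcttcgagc
Derl3: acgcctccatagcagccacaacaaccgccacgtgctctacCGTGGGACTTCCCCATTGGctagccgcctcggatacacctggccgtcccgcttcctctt
Hspa5: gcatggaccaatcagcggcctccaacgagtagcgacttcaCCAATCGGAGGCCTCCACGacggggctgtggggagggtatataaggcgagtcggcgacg
The element begins 162 bases before the start in Calr, 98 in Pdia6, 145 in Canx, 156 in Derl3, and 65 in Hspa5. It was found in 9 of the 24 list members that had a window, 4 of 6 called and 5 of 18 not called, and in 39 of all 32851 windows (0.119%).

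Among the listed heat shock genes 1 mouse at ZT12 had the highest levels of each gene called. Of 27 measured, 4 were called higher (14.8%, against 1.61%) and none lower, and the median log2 fold change was −0.01. Hspa1a, an inducible HSP70 gene, was at 2.38 to 3.93 CPM at ZT8 and at 3.95, 22.1, 2.98, 3.04, and 4.61 CPM at ZT12. Hspa1b, its near-identical copy, was at 30.8 CPM in the same ZT12 replicate 2 and at 5.23 to 9.81 CPM in the others. Reads that aligned to both copies were set aside as not unique and counted for neither. Dnajb1, an HSP40 co-chaperone, was at 79.7 CPM in that mouse, with the others at 34.5 to 39.8 CPM and the ZT8 mice at 25.1 to 29.2 CPM, so that its groups did not overlap with or without that mouse. The log2 fold changes of 1.2, 1.19, and 0.71 became 0.25, 0.54, and 0.39 without this mouse, and none of these 3 genes was then called (edgeR adjusted p = 0.737, 0.446, and 0.263). The constitutive Hspa8, at 855 ± 151 and 1227 ± 177 CPM, did not overlap between the groups, and it too lost its call without this mouse (0.38, edgeR adjusted p = 0.157). None of the 4 was called without ZT8 replicate 2 or in the 10 mice alone either, though the log2 fold changes were then 1.198, 1.05, 0.68, and 0.43, and 1.13, 1.09, 0.70, and 0.51, for Hspa1a, Hspa1b, Dnajb1, and Hspa8. Rbm3, an RNA-binding protein induced by mild cold, rose with a narrow spread, from 41.9, 42.6, 45.1, 41.2, and 40.7 CPM to 68.6, 65.3, 56.1, 63.8, and 62.8 CPM (0.57 ± 0.11, edgeR adjusted p = 0.00152). Its call was kept in the shared batches. Cirbp, the other cold-inducible gene listed, had a log2 fold change of −0.11 ± 0.15 (edgeR adjusted p = 0.775).

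**Figure D3:**
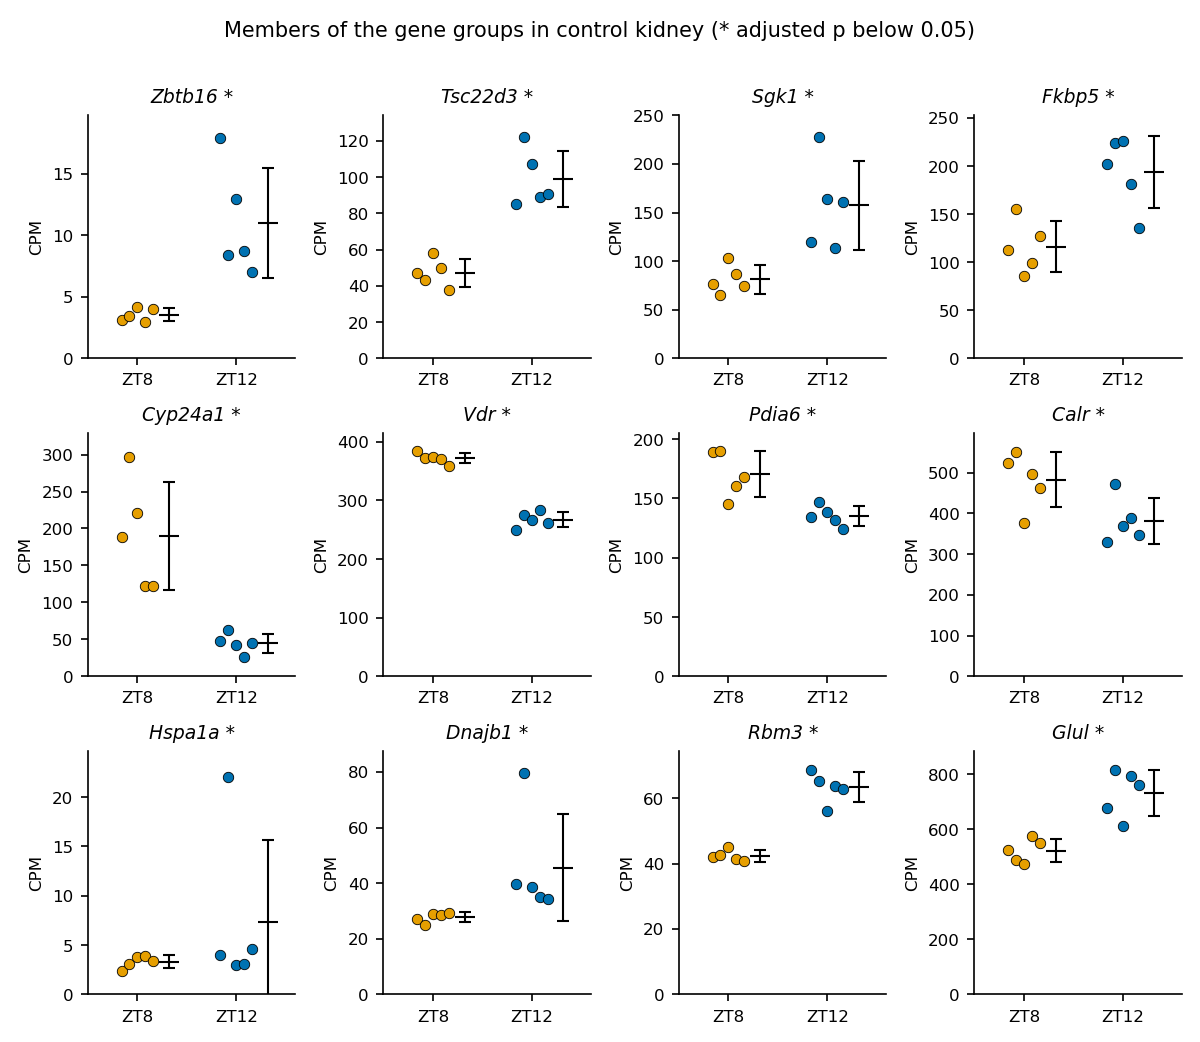
CPM (y axis, from 0) of 12 members of the gene groups in the 5 control mice at ZT8 (orange) and the 5 at ZT12 (blue), with mean and SD (lower error bars are cut at 0) and a star at an adjusted p below 0.05. Tsc22d3, Cyp24a1, Vdr, and Rbm3 separate fully between the times, as does Dnajb1, whereas Hspa1a overlaps, and in both 1 mouse at ZT12 lies far above the others.

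Among metabolic genes, those of glutamine and alanine handling rose. Glul, the glutamine synthetase that consumes ammonia, went from 525, 487, 475, 574, and 552 CPM to 676, 813, 612, 792, and 762 CPM without overlap (0.51 ± 0.10, edgeR adjusted p = 0.00232). Gpt2, a mitochondrial alanine aminotransferase, rose from 75.5 ± 10.6 to 105 ± 13.4 CPM (0.43 ± 0.08, edgeR adjusted p = 0.00215), and Creb1, a transcription factor of the cAMP response, from 44.0 ± 4.57 to 54.9 ± 0.543 CPM. These were the 3 called of 18 genes of gluconeogenesis and ammonia metabolism (16.7%, against 1.61% of all genes tested called higher), and no member fell. Creb1 was not called in 2 of the 10 fits without a control mouse, nor without RUVs factors (0.32, edgeR adjusted p = 0.0997). In NAD metabolism 1 of 22 rose and 1 fell (4.55% each, against 1.61% and 1.2%). Nampt, the rate-limiting enzyme of NAD salvage, went from 251 ± 6.35 to 303 ± 24.3 CPM (0.23 ± 0.06, edgeR adjusted p = 0.0153). Its call was lost in 2 of the 10 fits without a control mouse and without RUVs factors (0.27, edgeR adjusted p = 0.138). Acmsd, which diverts tryptophan breakdown away from NAD synthesis, fell from 137 ± 18.3 to 92.6 ± 15.5 CPM (−0.59 ± 0.15, edgeR adjusted p = 0.0181), without overlap, and was not called in 4 of the 10 fits without a control mouse. Alas1, the rate-limiting enzyme of heme synthesis, was the 1 of 27 genes of xenobiotic metabolism that rose (3.7%, against 1.61%), from 213 ± 24.3 to 296 ± 62.0 CPM, with 1 mouse at ZT12 (191 CPM) below 4 of the 5 at ZT8. It was not called in 6 of the 10 fits without a control mouse, nor without RUVs factors (0.48, edgeR adjusted p = 0.0998).

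The remaining lists are read against the 2.81% called among all genes tested. No gene of fatty acid oxidation was called among 31, and 1 of 31 genes of sterol and lipid synthesis was (Sc5d, 0.19 ± 0.06, lost in 8 of the 10 fits without a control mouse). Scd1, a fatty acid desaturase, varied among mice from 142 to 483 CPM at ZT8 and from 83.3 to 198 CPM at ZT12 and was not called (−0.78 ± 0.36, edgeR adjusted p = 0.252). Of 26 genes of autophagy and lysosomes, Bnip3 (0.24 ± 0.06) and Ctsl (0.20 ± 0.05, lost in 6 of these fits) rose (7.69%, against 1.61%). Of 25 cell cycle genes none was called. Neither were any of 77 cytoplasmic ribosomal protein genes, of 93 nuclear genes of oxidative phosphorylation, or of 7 mitochondrially encoded ones. Of the ribosomal protein genes 62 of 77, and of the nuclear oxidative phosphorylation genes 79 of 93, had positive log2 fold changes, against 8168 of all 15546 genes tested. The medians were 0.05 each, against 0.01 over all genes tested. Of the 31 genes of fatty acid oxidation 8 were positive and 23 negative. Immediate early genes gave 2 calls of 23, both higher (8.7%, against 1.61%). Klf2, a flow-responsive factor, had 0.61 ± 0.16 and Ier3 0.57 ± 0.17, the groups overlapped in each, and the calls were lost in 5 and 7 of the 10 fits without a control mouse.

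Transporter genes were called at a share near that of all genes tested (1.61% higher, 1.2% lower). Of 26 genes of distal sodium and potassium transport 1 rose, Usp2, a ubiquitin-specific protease (147, 145, 153, 148, and 165 CPM at ZT8; 194, 221, 190, 213, and 197 CPM at ZT12). Its groups did not overlap (0.42 ± 0.10, edgeR adjusted p = 0.00811). The sodium chloride cotransporter gene Slc12a3 was at 1115 ± 90.7 and 1090 ± 84.6 CPM (−0.02 ± 0.07, edgeR adjusted p = 0.903), and Scnn1a, the α subunit of the epithelial sodium channel, was at 71.3 ± 1.64 and 80.7 ± 3.85 CPM (0.22 ± 0.08, edgeR adjusted p = 0.153). Of 31 proximal transport genes 1 fell, the glucose transporter gene Slc2a2 (262 ± 14.2 to 221 ± 27.7 CPM, −0.29 ± 0.08), and it lost its call in 7 of the 10 fits without a control mouse. The sodium-hydrogen exchanger gene Slc9a3 was at 237 ± 27.3 and 227 ± 11.9 CPM. Of 14 genes of water and urea transport none was called, with log2 fold changes from −0.22 to 0.54.

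**Figure D4:**
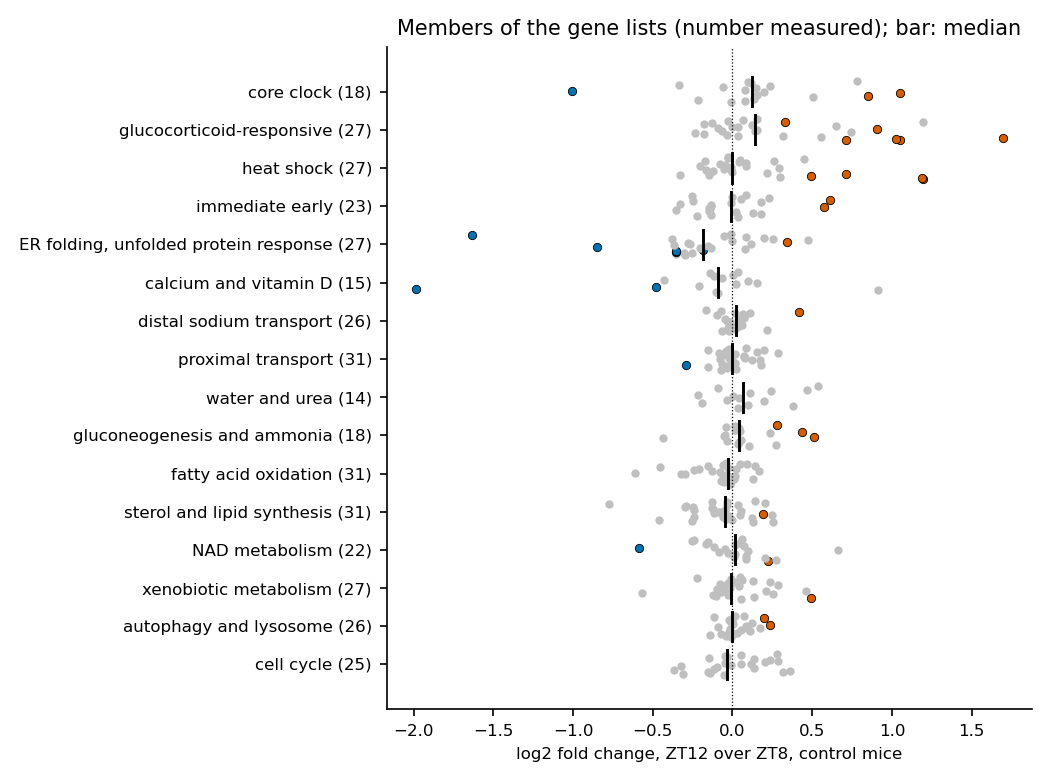
The x axis gives the log2 fold change from ZT8 to ZT12 in control mice, each point is a member of one of 16 gene lists (rows, number measured in brackets), orange and blue mark members called higher and lower, and the bar is the median. The glucocorticoid-responsive list has 6 orange points up to 1.69, the ER list has its median at −0.18, and the medians of most other lists lie close to 0.

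Several of the largest changes lay outside these lists. Thbs4, an extracellular matrix protein, rose from 0.162 to 0.583 CPM at ZT8 to 0.956 to 2.01 CPM at ZT12, the largest rise under the rule for named genes (1.79 ± 0.38, edgeR adjusted p = 0.00367). Alk, a receptor tyrosine kinase gene, went from 0.671 ± 0.389 to 1.91 ± 0.578 CPM and Hif3a, a hypoxia-inducible factor subunit, from 1.89 ± 0.349 to 3.84 ± 1.44 CPM. Without ZT12 replicate 3 Hif3a was not called (0.79, edgeR adjusted p = 0.087). Igfbp1, a binding protein of insulin-like growth factors, fell from 3.36, 3.84, 5.09, 7.45, and 4.11 CPM to 1.74, 1.19, 0.899, 2.47, and 3.21 CPM (−1.26 ± 0.33, edgeR adjusted p = 0.0238). Its call was lost without ZT8 replicate 4, ZT12 replicate 2, or ZT12 replicate 3. Cit, which encodes the cytokinesis kinase citron, fell from 18.7 ± 2.77 to 9.57 ± 1.71 CPM without overlap (−0.99 ± 0.20, edgeR adjusted p = 0.00234). Zim1, a zinc finger gene, fell from 4.52 ± 0.702 to 2.20 ± 0.620 CPM. Ak5, an adenylate kinase gene, fell from 4.21 ± 0.365 to 1.98 ± 0.781 CPM but lost its call in 9 of the 10 fits without a control mouse. The neighbouring olfactory receptor genes Olfr1392 and Olfr1393 fell together (−1.62 ± 0.32 and −0.96 ± 0.21), from 1.54 and 2.69 CPM. They belong to a large gene family, and reads without a unique alignment were counted for neither.

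Markers of other kidney cells were looked at in the same way. Of 8 fibroblast and mural cell markers 7 had negative log2 fold changes, against 7378 of all 15546 genes tested. Of the 8, 1 was called, Pdgfrb (−0.43 ± 0.12), which is 12.5%, against 1.2% of all genes tested called lower. It lost its call in 7 of the 10 fits without a control mouse. These markers summed to 228 to 350 CPM at ZT8 and 178 to 282 CPM at ZT12. Of 5 podocyte markers 4 were negative, 1 was positive, and none was called. They summed to 298 to 346 CPM at ZT8 and 266 to 308 CPM at ZT12. No marker of proximal tubule, thick limb, distal convoluted tubule, collecting duct, endothelium, macrophages, lymphocytes, or injury was called. The 2 erythroid markers measured summed to at most 0.689 CPM. The 6 adipose and adrenal markers summed to 1.68 to 23.0 CPM at ZT8 and 3.09 to 7.76 CPM at ZT12, and among them the brown fat gene Ucp1 was at 0.054 to 8.45 CPM and at 0 to 1.44 CPM (not called). The part of cell composition in the changes above was not tested.

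The 4 h were then set within the whole day. Among the 251 genes that rose, the control mean was highest of the 6 times at ZT12 for 162, at ZT20 for 40, at ZT16 for 28, and at ZT0 for 21, which partly follows from their choice at ZT12. Among the 186 that fell, it was lowest at ZT12 for 135. Cry1 was still climbing at ZT12. Its control mean continued to 22.3 ± 1.78 CPM at ZT16 and to 23.1 ± 3.27 CPM at ZT20. Per2 was at 101 ± 20.6 CPM at ZT16, within the ZT12 range of 89.2 to 126 CPM. Nr1d1 had its highest mean at ZT4 (74.5 ± 7.79 CPM) and continued down to 4.16 ± 2.00 CPM at ZT20. Cyp24a1 had its highest mean at ZT8 and stayed at 51.3 ± 18.0 and 49.7 ± 20.6 CPM at ZT16 and ZT20, whereas Vdr, lowest at ZT12, was back at 318 ± 31.0 CPM by ZT16. Tsc22d3 and Sgk1 had their highest control means at ZT12. The ER genes Calr and Hspa5 were at their lowest at ZT12 and stood at 619 ± 70.5 and 949 ± 143 CPM at ZT16.

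**Figure D5:**
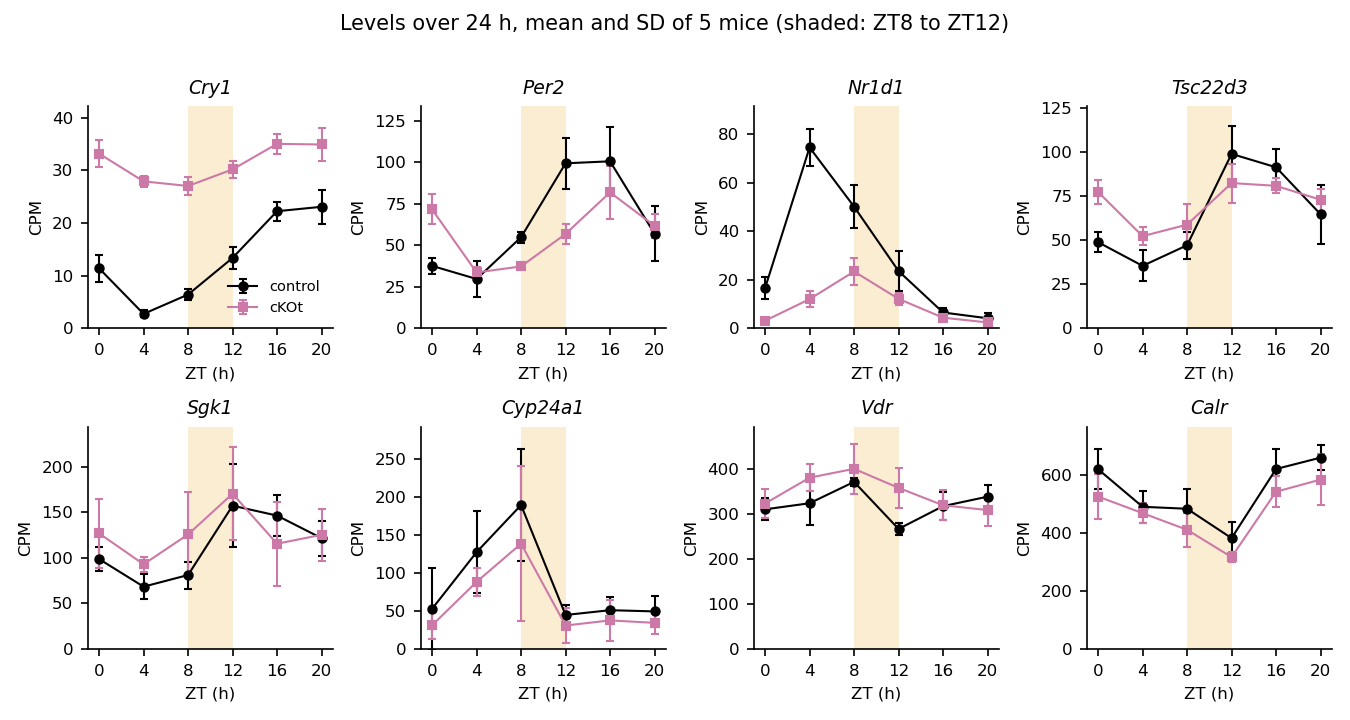
Mean and SD of the CPM (y axis, from 0) of 8 genes in 5 control (black) and 5 cKOt mice (pink) at each of 6 times (x axis, ZT in hours), with the interval from ZT8 to ZT12 shaded (lower error bars are cut at 0). Cry1 rises through the shaded interval in control mice and lies at 27.0 and 30.2 CPM in cKOt mice, whereas Cyp24a1 falls in both genotypes.

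Mice without tubular Bmal1 showed which of these changes differed between the genotypes. The same contrast in 5 and 5 cKOt mice called 38 genes (0.244%), 18 higher and 20 lower, and 19 of them were among the 437. Arntl, the targeted gene, was at 18.5 ± 1.96 CPM at ZT8 and 17.4 ± 2.01 CPM at ZT12 in cKOt mice, above the control mice at both times, whereas at ZT0 it was at 24.4 ± 1.57 CPM against 48.4 ± 10.2 CPM in control mice. Counts per gene do not tell transcripts of the deleted allele from intact ones, and pieces of kidney also hold cells outside the tubule. These levels therefore do not measure the loss of Bmal1. A test of the difference between the 2 changes, in the same fit, called 2 genes of 15546 (0.0129%), Cry1 among them, and 1002 genes had an unadjusted p below 0.05. In cKOt mice Cry1 was at 27.0 ± 1.68 and 30.2 ± 1.54 CPM, a log2 fold change of 0.15 ± 0.10, and the difference between the genotypes was 0.90 ± 0.16 (edgeR adjusted p = 0.00305). Across the alternatives this difference was 0.84 to 0.99, and it was called in each fit that held both genotypes.

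Other changes were present in both genotypes or could not be told apart. Cyp24a1 fell in cKOt mice as well, from 139 ± 102 to 31.0 ± 23.3 CPM (−2.10 ± 0.48, edgeR adjusted p = 0.0368), with a difference between genotypes of 0.11 ± 0.65. Per2 (0.67 ± 0.16), Hif3a (1.09 ± 0.25), Acmsd (−0.65 ± 0.15), Alas1 (0.92 ± 0.14), Ier3 (0.79 ± 0.17), and Sult1a1 (0.54 ± 0.10) also changed in cKOt mice in the direction seen in controls. For Nr1d1 the change in cKOt mice was −0.73 ± 0.23 (edgeR adjusted p = 0.181), from a level of 23.4 ± 5.43 CPM at ZT8, and the difference of −0.28 ± 0.30 was not called. Tsc22d3 and Sgk1 had 0.47 ± 0.14 and 0.43 ± 0.19 in cKOt mice, with differences of 0.58 ± 0.19 (edgeR adjusted p = 0.573) and 0.59 ± 0.27 (edgeR adjusted p = 0.756). Vdr had −0.12 ± 0.09 in cKOt mice and a difference of −0.36 ± 0.12 (edgeR adjusted p = 0.573). Thbs4 was at 0.0499 and 0.0415 CPM on average in cKOt mice at the 2 times, too low for a fold change. The next smallest p values for the difference belonged to Serpinb9, an inhibitor of granzyme B (−0.53 ± 0.12, edgeR adjusted p = 0.189), Pnp, a purine nucleoside phosphorylase (−0.38 ± 0.09, edgeR adjusted p = 0.233), Ccdc151 (1.26 ± 0.30), and Serpina1d (1.12 ± 0.27, both edgeR adjusted p = 0.24). None of these differences was called. In control mice Serpinb9 (−0.38 ± 0.08, edgeR adjusted p = 0.00549) and Pnp (−0.34 ± 0.06, edgeR adjusted p = 0.0013) were called lower at ZT12. Both calls were lost without RUVs factors. Serpina1d was called lower in cKOt mice (−1.01 ± 0.20, edgeR adjusted p = 0.0103), and Ccdc151 was called in neither genotype.

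Of the 251 genes that rose in control mice, 212 (84.5%) had a positive log2 fold change in cKOt mice, where 47.3% of all genes tested did. Of the 186 that fell, 159 (85.5%) were negative in cKOt mice, against 52.7%. The 2 contrasts share no mice, but they share the fit and its RUVs factors. The median log2 fold changes of the 2 sets in cKOt mice were 0.11 and −0.15, against 0.30 and −0.42 in the control mice by which they were chosen.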

How the data were processed

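Kidney RNA of 60 male mice, 5 per genotype and time, was sequenced by the authors as single reads from stranded poly(A) libraries. Per the labels, reads were trimmed with cutadapt (version 1.8), aligned to GRCm38 with STAR (version 2.5.3a), and counted with HTSeq (version 0.9.1). The deposited values are whole-number counts per Ensembl gene, not normalized. Counting lines that name no gene were left out. Reads of unique alignments outside genes were 7.58% to 9.15% in the 10 mice. The 10 libraries held 17911086 to 19190706 counts, and their TMM factors were 0.908 to 1.00. Transcripts near 1 CPM rest on few reads, and differences there were detectable only when large.

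The 15546 genes that reached 1 CPM in any of the samples were fitted in edgeR (version 4.0.16, R version 4.3.3) by the quasi-likelihood method with TMM library sizes, 1 coefficient per genotype and time, and 2 RUVs factors, written anew from logCPM with a prior count of 2. All 60 mice shared the fit, and p values were adjusted by Benjamini and Hochberg with a threshold of 0.05. The standard error is the log2 fold change divided by the root of its F. CPM values are TMM-scaled and not corrected for RUVs factors. The scripts were tested on simulated data. Symbols and positions came from GENCODE release 21, and promoter windows from RefSeq, which had one for 65 of 76 named genes. Each library is from a separate mouse, so the spread is between animals.

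Genes were named by a rule: all core clock genes, the 8 largest rises and 8 largest falls among called genes with a mean of at least 1 CPM, no overlap, and the same direction with each mouse left out (predicted genes excepted), up to 3 called members of each other list in each direction, and the 6 smallest p values for the difference between genotypes. A further 18 list members were named after their values were seen. Genes not reported here stayed in the fit and in the counts over all genes, and were left out of the lists. The members and lists were chosen with earlier results of these data known. The alternatives were DESeq2 (version 1.42.0) size factors and Wald test, limma-trend (version 3.58.1), other filters, other covariates, fewer mice, a 1.2-fold minimum, and each control mouse left out. Leaving out cKOt mice was added after the data were seen. Batch came from the study's sample sheet, in which 3 of 6 batches held both times.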

Additional observations from a re-analysis of the deposited data

Results flagged for a closer look

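In 10 of 152 groups of 5 mice examined (2 for each of 76 named genes), 1 mouse lay far from the others by Dixon's ratio (its gap to the nearest mouse divided by the range of the group, above 0.71). Chance alone gives about 1 in 20 such groups. At ZT12, replicate 2 was the far mouse for Hspa1a (ratio 0.915, 22.1 CPM against at most 4.61), Hspa1b (0.821), Dnajb1 (0.883), and Per2 (0.748, 126 CPM against 89.2 to 98.5). Replicate 3 at ZT12 was far in Arntl (0.889, 5.51 CPM against 1.93 to 2.32). Replicate 4 at ZT12 was far in Bnip3 (0.748, 226 CPM against 182 to 193). At ZT8, replicate 1 was far in Arntl (0.769, 4.17 CPM against 2.12 to 2.59), and replicate 3 in Per1 (0.765, 47.2 CPM against 25.9 to 30.9) and Olfr1392 (0.842, 2.17 CPM against 1.31 to 1.45). Replicate 5 at ZT8 was far below in Ddit4 (0.754, 9.14 CPM against 15.5 to 17.6).

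The change of Cry1 from ZT8 to ZT12 differed between control and cKOt mice by the test of the difference itself, by 0.90 on the log2 scale (1.05 in control and 0.15 in cKOt mice, edgeR adjusted p = 0.00305).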

How the results depend on the processing

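The 437 called genes (251 higher, 186 lower) became 255 (151, 104) without a low-count filter and 565 (316, 249) by the DESeq2 Wald test. They became 130 (65, 65) without RUVs factors and 134 (80, 54) with batch in their place. In the 10 mice alone 76 (36, 40) were called and in shared batches 8 (4, 4), in both with fewer mice and no RUVs factors. All 130, and all 8, were among the 437. A 1.2-fold minimum left 145 higher and 157 lower genes, so that the lower ones outnumbered the higher. Leaving out 1 control mouse gave 229 to 427 genes and leaving out 1 cKOt mouse, an alternative chosen after the data were seen, 375 to 454. Over both, 126 to 265 were higher and 92 to 197 lower. The difference between genotypes gave 2 genes in the settings that change the fit and 2 to 4 with a mouse left out (4 without cKOt ZT12 replicate 2). The cKOt contrast gave 38 genes, 75 by the DESeq2 Wald test, 14 with 1 RUVs factor, and 11 to 41 with a mouse left out (11 without cKOt ZT12 replicate 4). The share of higher genes was 57.4%, 50% without RUVs factors, and 47.4% in the 10 mice alone.

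Replicate numbers did not pair mice (r of same-numbered mice −0.121 to 0.104), and 0 of 5 ZT8 mice correlated best with their own number. With the replicate block, 407 genes were called (231 higher, 176 lower), 30 in cKOt mice, and 2 for the difference.

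The log2 fold changes that changed sign belonged to genes that were not called. Arntl was 0.030 without RUVs factors, 0.017 with 1 factor, 0.013 in the 10 mice alone, and −0.42 to 0.18 with a mouse left out. Without ZT12 replicate 3, Clock was −0.00016, Bhlhe41 0.033, and Nfil3 −0.073. The other fits without a mouse reached 0.14 for Clock, −0.17 for Bhlhe41, and 1.02 for Nfil3. Slc12a3 ranged from −0.065 to 0.036 (without ZT8 replicate 2) and Cirbp from −0.23 to 0.041 (without ZT12 replicate 2), and Nr3c1 was 0.016 in shared batches. Of the 47 called genes named, 20 kept the call with each of the 10 control mice left out, 23 without RUVs factors, 19 in the 10 mice alone, and 6 in shared batches. By the DESeq2 Wald test 2 of the 47 had no adjusted p value, and the other calls were kept.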
